A study of Mus musculus with 4 samples.

Results

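The bone morphogenetic protein (BMP) pathway was described here through 10 genes chosen by name: the ligands Bmp4, Bmp2 and Bmp7, the targets Id1, Id2, Id3, Msx1 and Msx2, and the intracellular inhibitors Smad6 and Smad7. They are 10 of 21938 protein-coding genes annotated on mm10, and 124 of the 80380 regions with an ATAC-seq peak lay within 50 kb of one of their transcription start sites, none of them near 2 members. ATAC-seq cuts open chromatin with a transposase, so a peak marks accessible DNA. The 4 libraries came from embryoid bodies on day 4, cell clusters in which cultured mouse stem cells start on the early lineages. WT cells (2 libraries) were E14Tg2A embryonic stem cells, and CTCF-K20R cells (2 libraries, K20R below) were the same line with lysine 20 of CTCF changed to arginine through CRISPR/Cas9. Both genotypes were kept on inactivated mouse fibroblasts with LIF and the inhibitors CHIR99021 and PD0325901, and then formed embryoid bodies in hanging drops with serum and no LIF. The number of K20R clones behind the libraries is not given in the sources used here, so a property of a clone and the mutation cannot be told apart. The methods call the 2 libraries of a genotype biological replicates without saying what they share, so the spread between them may be partly technical.

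BMP ligands are secreted and bind receptor serine/threonine kinases, which phosphorylate SMAD1, SMAD5 and SMAD9. These join SMAD4, enter the nucleus and bind DNA near target genes, in particular at GC-rich elements followed by a SMAD box. In the early embryo BMP4 is needed for mesoderm to form, the Id genes are among the fastest targets, and SMAD6 and SMAD7 limit the signal as induced feedback inhibitors.

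The known element of BMP targets joins the GC-rich SMAD site GGCGCC to GTCT after a spacer, written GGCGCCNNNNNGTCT. Searched on both strands within 100 bp of the strongest summit, it was found in 37 of 80380 regions (0.046%), and 4 of those 37 regions lay within 50 kb of a member, all beside Id genes (3.23% of 124 regions). With GGCGNCNNNNNGTCT and GACGNCNNNNNGTCT added, a wider form that includes the first, the counts were 144 regions (0.179%) and 5 regions (4.03%), the added one being the region just upstream of Id1. The 5 windows of 100 bases are shown because accessibility at these elements is compared between the genotypes further on. They are plus-strand sequences of mm10 from the RefSeq assembly, with the element in capitals.
Id1, chr2:152735163-152735262, intergenic, element at −1038 bp: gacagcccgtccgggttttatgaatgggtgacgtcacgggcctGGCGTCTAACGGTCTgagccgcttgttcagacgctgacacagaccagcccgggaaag
Id1, chr2:152739428-152739527, intergenic, element at +3227 bp: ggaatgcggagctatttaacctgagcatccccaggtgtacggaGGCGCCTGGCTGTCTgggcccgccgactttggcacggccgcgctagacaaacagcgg
Id2, chr12:25098811-25098910, intergenic, element at −1721 bp: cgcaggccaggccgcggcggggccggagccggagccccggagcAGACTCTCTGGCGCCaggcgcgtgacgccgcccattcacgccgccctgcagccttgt
Id3, chr4:136140497-136140596, intergenic, element at −2950 bp: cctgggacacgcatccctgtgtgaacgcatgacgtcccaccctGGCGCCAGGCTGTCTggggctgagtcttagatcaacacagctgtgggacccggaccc
Id3, chr4:136147938-136148037, intergenic, element at +4491 bp: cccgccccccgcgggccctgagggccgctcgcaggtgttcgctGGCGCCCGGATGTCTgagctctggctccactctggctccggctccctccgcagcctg

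Each library has its own list of peaks, with 59783 and 66703 peaks in WT replicates 1 and 2 and 51823 and 55832 in K20R replicates 1 and 2; throughout, values are given in that order. The lists hold a −log10 p and a fold enrichment for every peak but no read totals, so sequencing depth is unknown. The number of reads stacked at the summit, the summit pileup, was recovered from both values and was whole within 0.02 for all peaks (100% in each list). Its median over regions with a peak in all 4 libraries was 38, 56, 39 and 58, higher in the second replicate of each genotype. Peaks were therefore compared by rank within a library, as the percentile of −log10 p (100 is the strongest peak of the list). Of the markers of the cell types that day-4 embryoid bodies and their culture could hold, promoter peaks were present in every library for 6 of 6 early mesoderm genes, 5 of 5 neuroectoderm genes, 5 of 6 pluripotency genes and 4 of 6 fibroblast genes. By the limma test explained with the promoters, 1 of 6 early mesoderm promoter regions was lower in K20R (T, normal score difference −0.52) and 1 higher (Mesp1, 1.0), 2 of 5 pluripotency ones were higher (Pou5f1, 0.47, and Zfp42, 0.52), 1 of 4 fibroblast ones was lower (Thy1, −0.46), and 0 of 5 neuroectoderm ones passed, against 3.52% lower and 4.99% higher of all protein-coding promoter regions. The others on these lists lay on both sides. Of the early mesoderm genes, Eomes was at 0.33, Tbx6 at 0.39, Pdgfra at 0.39 and Mixl1 at −0.06. The median over the 6 early mesoderm promoter regions was 0.36, and over the 5 neuroectoderm ones −0.11. Nanog was at −0.18, Esrrb at −0.1, Sox2 at 0.37, Col1a1 at 0.02, Col1a2 at 0.15 and Twist2 at 0.09. Dppa4 had a promoter peak in the K20R libraries alone, and Col3a1 and Postn had none. The part of a changed cell makeup in the differences near BMP genes was not tested.

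All 10 members had a peak within 1 kb of a start site in all 4 libraries, against 66.3% of the 21938 protein-coding genes. By the mean over the 4 libraries the strongest promoter peaks were those of Smad7, at percentiles of 86.7, 89.4, 87.2 and 92, and of Bmp7, at 87, 84, 86.3 and 87.8. Bmp4 had the weakest, at 42.9, 39.3, 39.4 and 25.5. The other 7 members lay between 65.6 and 87.5 in every library. The promoters of the BMP targets and inhibitors were thus open in both genotypes, and the ligand Bmp4 stood apart by its low rank.

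**Figure D1:**
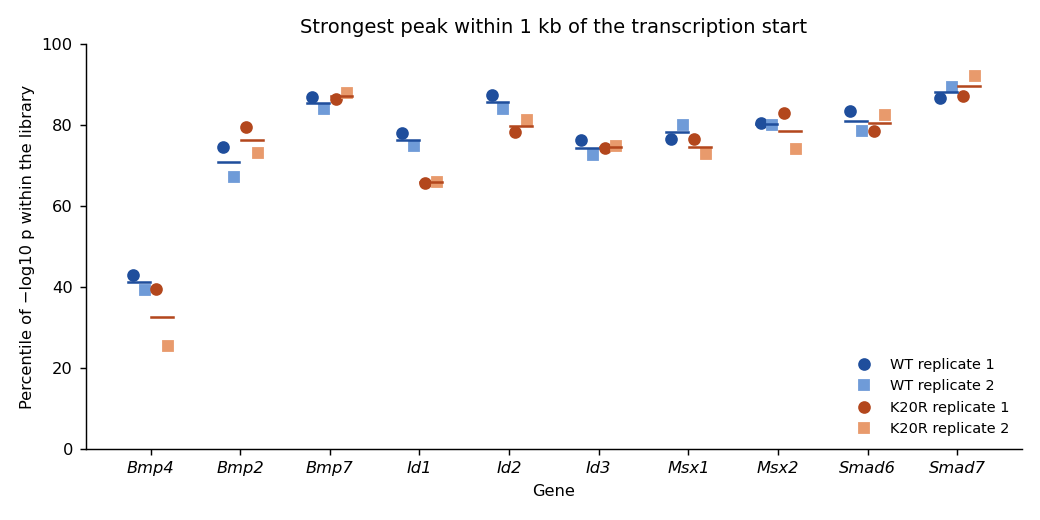
Percentile of −log10 p within each library for the strongest peak within 1 kb of a start site of each gene, with circles for replicate 1, squares for replicate 2 and a short line for the mean of each genotype. All values but those of Bmp4 lie above 65, and the K20R values lie below the WT values for Id1, Id2 and Msx1.

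No promoter region of a member differed between genotypes in limma (0 of 10 at an adjusted p of 0.05), where 3.52% of protein-coding promoter regions were lower and 4.99% higher in K20R. For this test the −log10 p values of the 38527 regions with a peak in every library were ranked within each library and turned into normal scores, so that 0 is the middle region and a difference is in SD units. By percentile alone, the K20R libraries were both below the WT libraries for 3 members, Id1, Id2 and Msx1, and above them for 0 members, against 32.2% and 15.7% of genes whose promoter had a peak in each library. When promoters were ranked only among promoters, 2 members were lower (Id1 and Id2) and 2 higher (Bmp7 and Smad7), against 22.9% and 23.9%. By the percentile of fold enrichment 0 were lower and 4 higher, against 24.6% and 14.2%. With 2 libraries against 2, an exact two-sided permutation test cannot give a p below 0.333. Leaving out a library loosens the rule for lying apart, so the percentile counts of 3 and 0 could only stay or rise. The lower count was 6 without WT replicate 2 and 5 without K20R replicate 1, and the higher count was 1 to 3 with any library left out. Shares over all promoters were not computed for these settings.

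The promoter window of Id1, a gene for an inhibitor of DNA binding that blocks basic helix-loop-helix factors, held 2 regions. The core region, with its summit at −84 bp, had summit pileups of 108 and 133 in WT against 62 and 91 in K20R. The region at −1034 bp, which holds the wider element shown first, had pileups of 91 and 140 in WT against 47 and 82 in K20R. In both regions the K20R pileups were below the WT pileups in either library, and the score differences were −0.19 (SE 0.18, limma adjusted p = 0.54) and −0.46 (adjusted p = 0.12). Scaled by the library median, a measure added after the data were seen, the log2 pileups differed by −0.72 (limma adjusted p = 5.8e-05) and −0.91 (adjusted p = 1.2e-06). The local background of the core region was lower as well, at 27.8 and 35.5 in WT against 13.7 and 17.8 in K20R, and the log2 fold enrichment differed in the opposite direction, by 0.33 (adjusted p = 0.61) at the core and 0.1 (adjusted p = 0.94) at −1034 bp. The promoter of Bmp4 differed likewise by −0.74 (adjusted p = 0.0061) in pileup, with 40 and 57 reads in WT against 27 and 32 in K20R, by −0.16 (SE 0.33, adjusted p = 0.81) in score and by 0.24 (adjusted p = 0.8) in fold enrichment. The other 8 promoters did not pass in any of the 3 measures.

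Fewer peaks were listed around the members in K20R. Within 50 kb there were 102 and 108 peaks in the WT lists and 84 and 87 in the K20R lists, a mean of 105 ± 4.24 against 85.5 ± 2.12 (SD, n = 2; exact two-sided permutation p = 0.333, the smallest this design can give). The difference of −18.6% stood beside −14.9% for the whole lists. When each list was cut to its strongest peaks at an equal number, 86 and 79 peaks in WT stood against 84 and 77 in K20R, and the groups overlapped. At a −log10 q of at least 5 they overlapped too, with 60 and 79 peaks against 52 and 62 (exact two-sided permutation p = 0.667). By gene, the number ran from 2, 3, 2 and 2 peaks at Bmp2 to 17, 21, 14 and 16 at Smad7, and the genotypes were not apart at every member. Bmp7 had 8 and 10 peaks in WT against 3 and 4 in K20R, and Msx2 had 10 and 9 in WT against 6 and 5 in K20R. Both K20R numbers were also below both WT numbers at Smad7, Bmp4 (8 and 7 against 6 and 4) and Msx1 (6 and 6 against 5 and 5). No member had both K20R numbers above both WT numbers. The share of all genes with such a separation was not computed. Id1 had 16 and 18 in WT against 18 and 19 in K20R, and at Bmp2, Id2, Id3 and Smad6 the genotypes also overlapped or met.

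**Figure D2:**
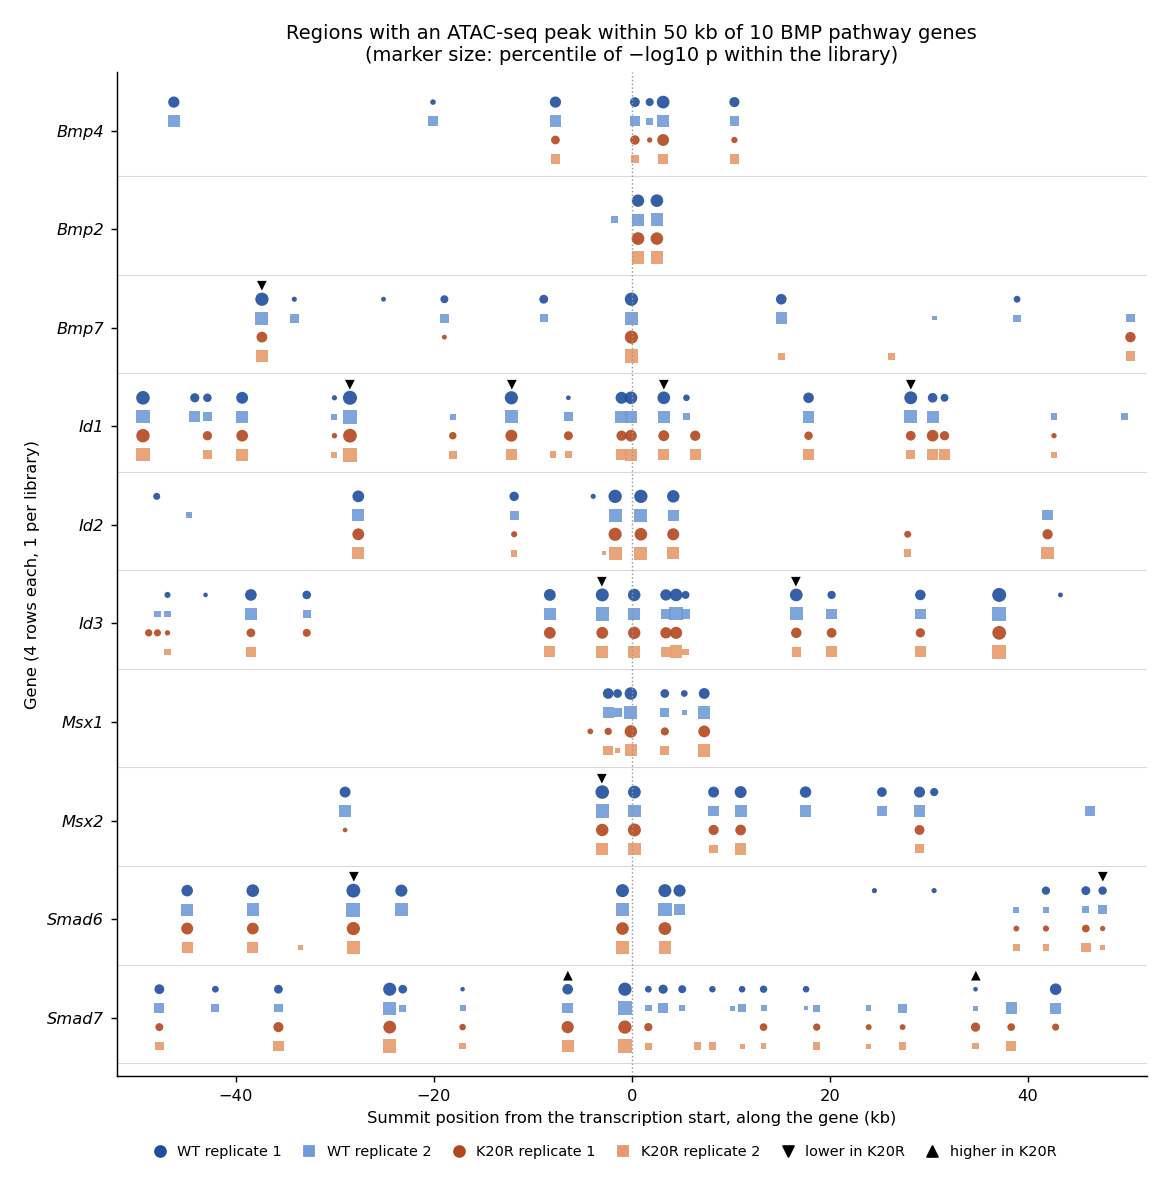
Position of every region with a peak within 50 kb of each member's start, along the direction of the gene (kb), with a row for each library and marker size for the percentile of −log10 p. Downward triangles mark the 10 common regions lower in K20R and upward triangles the 2 higher ones, and the 17 positions filled in both WT rows and in neither K20R row are the WT-restricted regions.

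Of the 124 regions near members, 63 were common to all 4 libraries (50.8%, against 47.9% of all regions). WT-restricted regions, with a peak in both WT lists and in no K20R list, numbered 17 (13.7%, Wilson 95% interval 8.74% to 20.9%, for counting error only), against 10.4% of all regions and 8.76% of those within 50 kb of a protein-coding start. K20R-restricted regions numbered 2 (1.61%), against 3.10% and 2.97%. On lists cut to equal numbers as above, 110 regions lay near members. Of these, 11 were WT-restricted (10%, against 8.04% of all regions) and 10 K20R-restricted (9.09%, against 6.29%), so both shares were then above those of all regions. The rule for a restricted region is looser with a library left out, so both counts can then only stay or rise. The K20R-restricted count was 11 without WT replicate 2, 7 without K20R replicate 1 and 4 without K20R replicate 2. The WT-restricted count was 21 to 25 with a library left out. Shares of all regions were not computed for these settings, so the counts do not show how stable either pattern is. The remaining 42 regions had a peak in 1 to 3 libraries in other combinations.

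The deposited lists lack some of the called peaks for a reason not stated, and gaps in the peak numbering show where. For 11 of the 17 WT-restricted regions no number was missing at that place in either K20R list, so no removed peak can lie there. Of the 17, 7 lay in introns, 1 in an exon, 1 in a promoter and 8 between genes, and 7 of the 10 members had at least 1. Smad7 had 5, Bmp7 had 3, Bmp4, Id1, Msx2 and Smad6 had 2 each, and Msx1 had 1. They were mostly weak, with median percentiles of 31.5 and 33.6 in the WT lists.

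The strongest WT-restricted region with no missing number lay at −23275 bp from Smad6 (chr9:64045027-64045598, intergenic). Its pileups were 53 and 112 in WT, at percentiles of 70.2 and 83.2. The 200 bases around its summit are shown because they hold 4 SMAD boxes (CAGAC or its reverse complement, in capitals), in a search where 41.6% of all regions and 7 of the 17 WT-restricted ones near members (41.2%) held at least 1.
Smad6, chr9:64045234-64045433, plus strand: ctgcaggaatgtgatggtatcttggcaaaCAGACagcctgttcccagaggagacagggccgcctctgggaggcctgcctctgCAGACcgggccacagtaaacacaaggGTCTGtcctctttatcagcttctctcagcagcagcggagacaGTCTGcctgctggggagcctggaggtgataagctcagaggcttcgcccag

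Neighbouring regions restricted to opposite genotypes lay beside Id1. A WT-restricted region at +5520 bp (chr2:152741689-152742028) had pileups of 37 and 49 in WT, and a K20R-restricted region at +6409 bp (chr2:152742240-152742719) had 36 and 62 in K20R, with 211 bases between them. No peak number was missing at either place in the lists without the peak. The percentiles were 13.3 and 13.1 for the first and 48.2 and 58.8 for the second, so the peak found in K20R ranked higher in its lists than the peak found in WT. The 200 bases around the K20R summit are shown because this was the only K20R-restricted region near a member with no number missing in the WT lists; they hold no GGCGCC and no CAGAC on either strand.
Id1, chr2:152742560-152742759, intergenic, plus strand: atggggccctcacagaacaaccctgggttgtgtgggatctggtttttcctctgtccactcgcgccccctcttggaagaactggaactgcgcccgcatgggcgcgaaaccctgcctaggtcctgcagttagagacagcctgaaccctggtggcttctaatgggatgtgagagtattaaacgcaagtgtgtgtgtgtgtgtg
The other K20R-restricted region, at +27863 bp from Id2, was weak, with pileups of 12 and 16 at percentiles of 15.8 and 22.1, and 2 numbers were missing there in each WT list.

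Among the 63 common regions near members, 10 were lower in K20R (15.9%, against 8.41% of all common regions and 7.29% of those within 50 kb of a protein-coding start) and 2 were higher (3.17%, against 7.09% and 6.57%) by limma on the normal scores. Their median score difference was −0.07, against 0.03 over all common regions, and 60.3% lay below 0, against 46.8%. None of the 10 lower regions was among the 12 in promoter windows, and all 10 were among the 51 outside them. Over all protein-coding genes, 3.52% of promoter regions were lower, so 0 of 12 is close to that share. By role, 7 of the 38 common regions of the targets were lower and 0 higher, 1 of 8 of the ligands lower and 0 higher, and 2 of 17 of the inhibitors lower and 2 higher.

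Whether this tilt is seen, and how strong it is, depends on the measure of a peak. On the summit pileup scaled by the library median, a measure added after the data were seen, 18 regions were lower (28.6%, against 10.5%) and 1 higher (1.59%, against 12.5%). On the fold enrichment over local background, 2 were lower (3.17%, against 4.14%) and 0 higher (0%, against 2.66%). By that measure the share of lower regions near members was not above that of all common regions. Among the 44 common regions near members where each library's peak reached a −log10 q of 5, 12 were lower (27.3%, against 6.8%) and 1 higher (2.27%, against 5.74%). With same-numbered libraries treated as a block, 12 of 63 were lower (19%, against 9.28%) and 2 higher (3.17%, against 8.15%). Fewer lower regions passed with any library left out. Without WT replicate 1 or K20R replicate 2 their share was close to that of all common regions. Such a fit has a single library in 1 genotype, so whether the excess rests on particular libraries was not tested. In those fits the score differences of the 10 regions lower in the main fit ran from −1.5 to −0.31. In each of these regions both K20R scores lay below both WT scores. A difference below 0 was therefore fixed in advance and does not show stability.

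**Figure D3:**
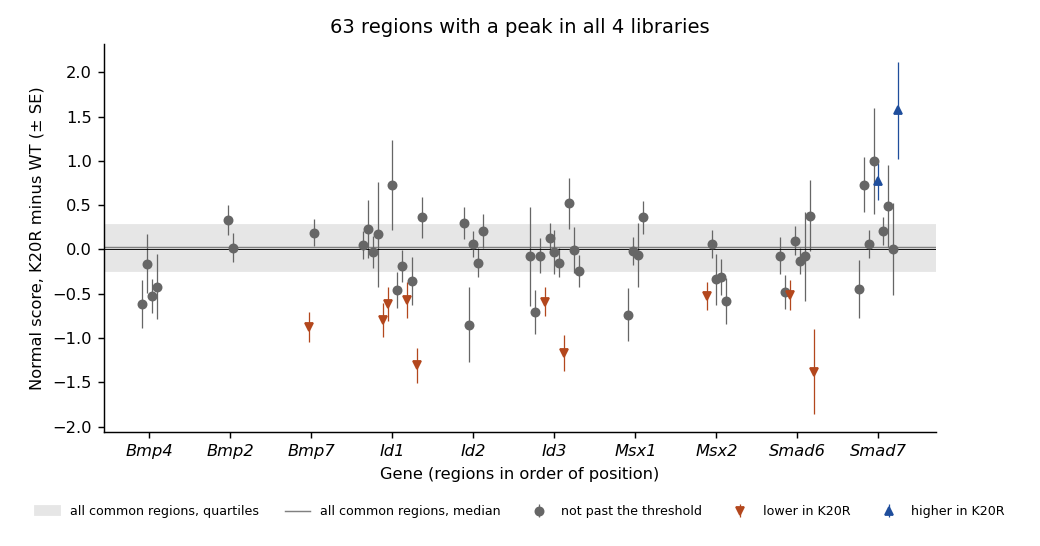
Difference in normal score, K20R minus WT, with its standard error for the 63 common regions of each member in order of position; the grey band spans the quartiles of all common regions, −0.24 to 0.28. The 10 lower regions lie at Bmp7, Id1, Id3, Msx2 and Smad6, and both higher ones at Smad7.

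The ligands had 21 regions, 8 of them common. Bmp4 (chr14:46383520-46390669), the ligand that induces mesoderm, lies in a stretch of chromosome 14, from 45.0 to 66.2 Mb, that was picked out from these data as lower in K20R, so its own level is a description. The 323 other common regions of that stretch had a median score difference of −0.61 (quartiles −0.88 and −0.35), and 54.2% of them were lower in limma. The 4 common regions near Bmp4 had a median of −0.47, which is 0.14 above the stretch, and none passed the test. In log2 pileup the medians were −0.69 for Bmp4 and −0.81 for the stretch. Its intronic region at +3165 bp had pileups of 77 and 108 in WT against 46 and 52 in K20R (score difference −0.53, SE 0.19, limma adjusted p = 0.052), and 58.5% of the stretch regions had a lower difference. Bmp4 also had 2 WT-restricted regions among 7, in a stretch where 21.1% of 782 regions were WT-restricted. The stronger, at −46261 bp in an intron of Gm15221, had pileups of 27 and 56 and percentiles of 60 and 71.8. The values at Bmp4 were thus within those of the chromosome stretch around it.

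**Figure D4:**
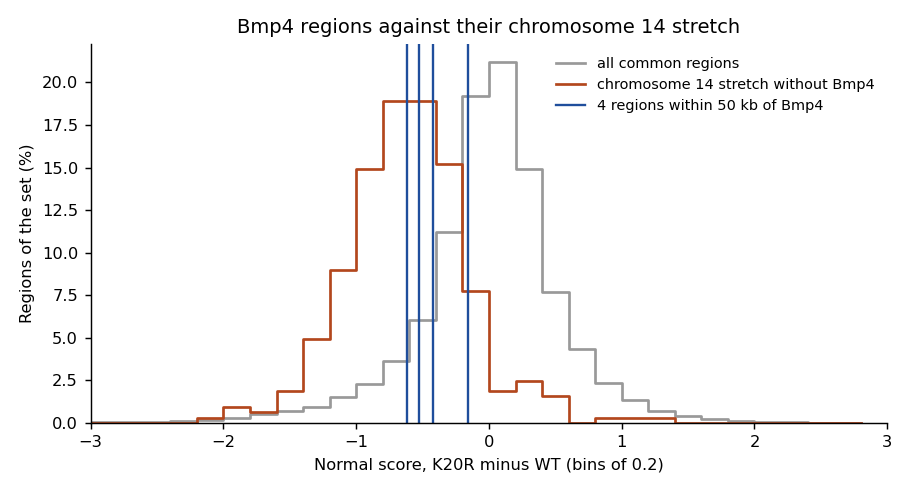
Share of regions (%) by difference in normal score, K20R minus WT, in bins of 0.2, for all common regions in grey and for the 323 regions of the chromosome 14 stretch in red, with the 4 common regions near Bmp4 as blue lines. The blue lines lie inside the red distribution, near or above its median of −0.61.

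Bmp2 (chr2:133552159-133562885), a close relative of Bmp4, had only 2 common regions and no restricted one. Its promoter had pileups of 70 and 91 in WT against 76 and 108 in K20R (score difference 0.33, SE 0.17, limma adjusted p = 0.22), and its exonic region at +2533 bp had 76 and 111 against 71 and 105. Neither passed the test. Bmp7 (chr2:172868012-172940321), a ligand that can pair with both, had promoter pileups of 124 and 165 in WT against 99 and 165 in K20R (adjusted p = 0.46). Its other common region, at −37361 bp (chr2:172977153-172978241, intergenic), was lower in K20R, with pileups of 70 and 84 in WT against 31 and 46 in K20R. The score difference was −0.88 (SE 0.17, limma adjusted p = 0.00026), against a median of −0.14 in 65 common regions within 1 Mb. The local background of that peak moved less, at 6.5 and 8.11 in WT against 5.18 and 5.19 in K20R, and the fold enrichment missed the threshold (log2 difference −0.55, adjusted p = 0.073). Of the 3 WT-restricted regions of Bmp7, at +38914, −8894 and −34092 bp, the highest percentile was 33.6.

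The lower regions were most numerous at Id1 (chr2:152736251-152737410), with 4 of 13 common regions. The difference with the smallest adjusted p near any member was at +28176 bp from Id1, in an intron of Cox4i2 (chr2:152763767-152764987). Its pileups were 69 and 101 in WT against 31 and 40 in K20R, and its percentiles fell from 82 and 81.7 to 41.9 and 37.9. The score difference was −1.31 (SE 0.2, limma adjusted p = 6.8e-06), and the fold enrichment was lower too (log2 difference −0.9, adjusted p = 0.0046). In the 102 common regions within 1 Mb of Id1, the median was 0.04 and 10.8% were lower.

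At Id3 (chr4:136143497-136145755), 2 of 11 common regions were lower. The region at +16614 bp (chr4:136159445-136160662, intergenic) had pileups of 51 and 87 in WT against 29 and 30 in K20R, at percentiles of 78.8 and 84.9 against 50.2 and 38.9. The score difference was −1.17 (SE 0.2, limma adjusted p = 3.5e-05), and the log2 fold enrichment difference was −0.94 (adjusted p = 0.00058). In the 86 common regions within 1 Mb the median was 0.1. Of the 12 called regions, 10 lost the call under at least 1 alternative. The regions at Id1 +28176 bp and Id3 +16614 bp kept it under every alternative in which single regions were refitted. The 200 bases around each summit are shown for that reason; neither holds a GGCGCC or a CAGAC on either strand.
Id1, chr2:152764327-152764526, plus strand: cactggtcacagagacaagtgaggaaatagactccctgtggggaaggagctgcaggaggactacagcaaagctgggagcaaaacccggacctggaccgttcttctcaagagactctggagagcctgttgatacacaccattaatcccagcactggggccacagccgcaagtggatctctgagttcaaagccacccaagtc
Id3, chr4:136160011-136160210, plus strand: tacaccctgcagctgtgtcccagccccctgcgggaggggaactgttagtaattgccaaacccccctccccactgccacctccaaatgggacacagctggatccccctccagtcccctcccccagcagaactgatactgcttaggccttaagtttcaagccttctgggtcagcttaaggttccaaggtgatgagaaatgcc

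Of the 4 regions with the stricter BMP response element, 2 were lower in K20R. At Id1 +3231 bp, which holds the second sequence shown, the pileups were 115 and 139 in WT against 54 and 78 in K20R (score difference −0.57, SE 0.2, limma adjusted p = 0.042). There the local background was lower along with the summit, at 29.9 and 38.7 in WT against 14.7 and 20.1 in K20R, and the fold enrichment was 3.75, 3.53, 3.49 and 3.74 (log2 difference 0.02, adjusted p = 0.99). At Id3 −2982 bp the pileups were 97 and 150 in WT against 60 and 90 in K20R (score difference −0.59, SE 0.16, adjusted p = 0.0076), with a log2 fold enrichment difference of −0.19 (adjusted p = 0.81). The element at Id2 lay in a region whose pileups were 113 and 158 in WT against 106 and 170 in K20R, with a score difference of 0.06 (SE 0.15, adjusted p = 0.86). The element downstream of Id3 lay in a region at 96 and 170 against 73 and 134 reads (score difference −0.15, SE 0.16, adjusted p = 0.6). Elsewhere in the genome 26 common regions held the stricter element, of which 1 was lower and 1 higher in K20R, with a median difference of 0.02.

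The 2 other lower regions of Id1 lay upstream, and 75% and 73.5% of the bases within 100 bp of their summits were G or C. The one at −28468 bp, in an exon of H13, was among the strongest near any member, with pileups of 166 and 230 in WT against 118 and 172 in K20R and percentiles of 99.3, 98.9, 94.5 and 93.5 (score difference −0.8, SE 0.19, limma adjusted p = 0.002). The one at −12164 bp had 71 and 71 reads in WT against 44 and 44 in K20R (score difference −0.62, SE 0.19, adjusted p = 0.026). On fold enrichment neither passed, with adjusted p values of 0.97 and 0.32.

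**Figure D5:**
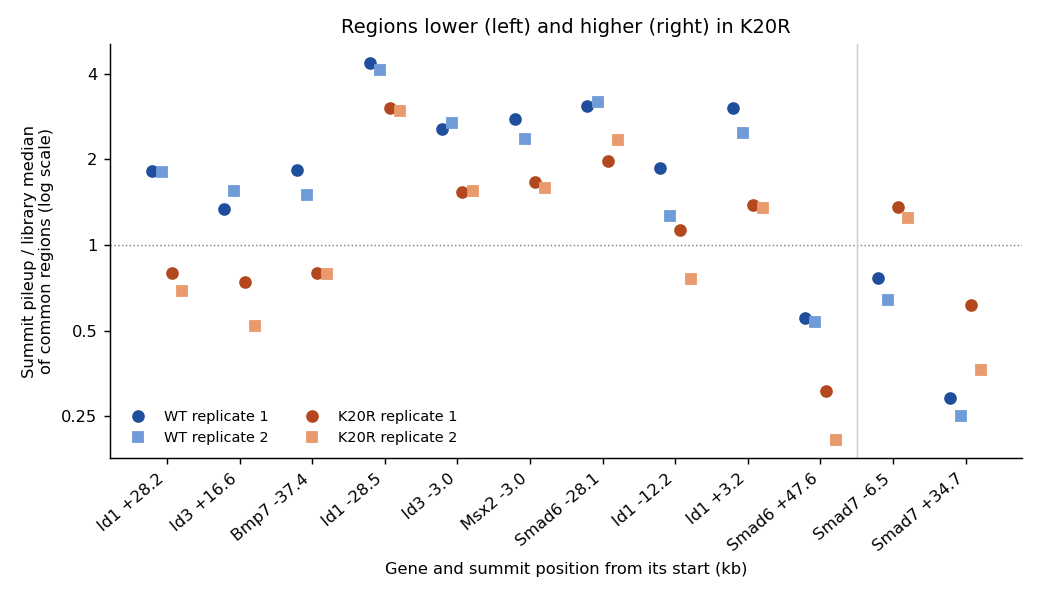
Summit pileup divided by the library's median over common regions (log scale) for the 10 regions lower and the 2 regions higher in K20R, in order of adjusted p, with blue for WT, orange for K20R, circles for replicate 1 and squares for replicate 2. The regions were chosen by the test between genotypes on the same peaks, so the separation of the points is a description.

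Id2 (chr12:25093799-25097140), the third Id gene, had no lower or higher region among 5 common ones. Its promoter had 125 and 167 reads in WT against 96 and 167 in K20R. Msx1 (chr5:37820485-37824583), a homeobox target of BMP signals, had none among 4, with promoter pileups of 88 and 145 in WT against 90 and 132 in K20R, and its WT-restricted region at +5301 bp, an intergenic region downstream of the gene, had 31 and 31 reads. Msx2 (chr13:53466884-53473074), a second homeobox target, had 1 of 5: the intergenic region at −2986 bp, with 105 and 132 reads in WT against 65 and 92 in K20R (score difference −0.53, SE 0.16, limma adjusted p = 0.017, against a median of 0.06 in 40 common regions within 1 Mb). Its 2 WT-restricted regions, at +17551 and +25264 bp in Gm2762, had percentiles of 62.1 and 66.9 and of 41.8 and 45.9, with no missing number in the K20R lists. Msx2 thus had both a lower upstream region and 2 distal regions without a K20R peak.

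Smad6 (chr9:63953076-64022059), which competes for receptor-activated SMAD proteins, had 2 of 8 common regions lower. The region at −28126 bp, in an intron of 1110036E04Rik, had pileups of 117 and 178 in WT against 77 and 136 in K20R (score difference −0.52, SE 0.17, limma adjusted p = 0.025), and its fold enrichment did not follow (log2 difference 0.08, adjusted p = 0.92). The region at +47558 bp, within an intron of Smad6, was weak throughout, at 21 and 30 reads in WT against 12 and 12 in K20R (score difference −1.38, SE 0.48, adjusted p = 0.045). The promoter stood at 113 and 159 against 106 and 186 reads. Besides the region shown above, an intronic WT-restricted region at +4824 bp had 77 and 94 reads, but 2 and 3 peak numbers were missing there in the K20R lists.

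Smad7 (chr18:75367529-75395935), which blocks the receptors, was the only member with regions higher in K20R. The region at −6477 bp, upstream of the promoter, had pileups of 29 and 36 in WT against 53 and 72 in K20R, at percentiles of 52.3 and 51.3 against 72.8 and 69.4 (score difference 0.77, SE 0.21, limma adjusted p = 0.0071). The region at +34720 bp was weak, with 11 and 14 reads in WT against 24 and 21 in K20R (score difference 1.57, SE 0.55, adjusted p = 0.045), and did not pass on pileup (adjusted p = 0.056). The median over its 9 common regions was 0.49, against 0.1 in 47 regions within 1 Mb, of which 10.6% were higher. Smad7 also had the most WT-restricted regions. The 5, at −42063, −23137, +3164, +5092 and +17605 bp, had percentiles of at most 43.3, and 2 of them (−23137 and +17605 bp) had no missing number. Regions in both directions thus lay around the same gene.

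The 39 other genes of the pathway were listed by role and not by how they moved. Promoter peaks were present in all 4 libraries for 36 genes, and Bmp10 and Gdf2 had none in any. Of the 36 promoter regions tested, 2 were lower and 1 higher in K20R by limma, against 3.52% and 4.99% of protein-coding promoters, with a median score difference of 0.09. Gdf5, a ligand of skeletal joints, was higher, at percentiles of 47.3 and 59.8 in WT against 79.9 and 77.1 in K20R (score difference 0.99, SE 0.19, adjusted p = 0.00018). The ligand Bmp5 was lower, at 61.6 and 65.3 against 31.9 and 27.3 (score difference −0.97, SE 0.28, adjusted p = 0.011). The receptor Bmpr1b was lower as well, at 95.1 and 96.2 against 87.4 and 87.5 (score difference −0.54, SE 0.16, adjusted p = 0.016). The next largest difference, at the receptor Acvrl1, was 0.46 (adjusted p = 0.32) and did not pass. Of the 7 receptors, 1 was lower and 0 higher, and of the 4 transducers, 12 inhibitors and 5 further targets tested, 0 passed in either direction. Both lower calls were lost without WT replicate 2 and without K20R replicate 2, where the count was 0, while the count of higher promoters was 1 whichever library was left out.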

How the data were processed

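ATAC-seq of 2 WT and 2 K20R libraries was analysed. According to the study's methods, reads were trimmed with Trim Galore and aligned to mm10 with Bowtie2, low-quality, duplicate and blacklisted reads were removed, and MACS2 called peaks in each library. In the deposited lists the score is 10 times −log10 p, the ratio divides summit by local background (fold enrichment), and the authors' −log10 p and −log10 q belong to the summit. Lists reach down to a −log10 p of 2.0 and hold 50.5% to 60.8% of their peak numbers, so called peaks were removed by an unstated rule.

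Peaks sharing 1 bp were merged. Start sites came from GENCODE vM21, and sequences from the RefSeq GRCm38 assembly (largest peak end 0.999 of its chromosome). Normal scores of −log10 p over 38527 common regions were fitted in limma 3.58.1 (R 4.3.3; trend and robust), with Benjamini-Hochberg adjustment over all of them and a threshold of 0.05; the fit was tested on simulated data. The fit drew on a median of 40.7 prior degrees of freedom taken from all common regions, beside 2 residual ones. Summit pileups and local backgrounds were solved jointly from fold (a ratio with 1 added to each term) and p (a Poisson tail). A region's place was assigned from its strongest summit. All members, their restricted regions, the 12 called regions and, of 39 pathway genes, those passing the test (or the 4 largest differences if fewer passed) were named. Members and lists were chosen with earlier results of these data known. Over the scores of common regions, the deviations of same-numbered libraries from their genotype means had a correlation of 0.0393. Their median pileups were alike, at 38 and 39 in replicate 1 and 56 and 58 in replicate 2. Whether same-numbered libraries shared a batch was not tested.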

Additional observations from a re-analysis of the deposited data

How the results depend on the processing

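With 2 libraries a genotype, no depth and lists from which peaks were removed, absence of a peak is not absence of accessibility, and a rank is relative to each list. All 10 promoters kept a peak in every library under 3 alternatives. Replicate numbers carry no shared batch or animal in the labels, and the correlation of deviations was 0.0393; with the replicate block 12 regions were lower and 2 higher, and all 12 main calls were kept. Lower and higher regions numbered 2 and 0 with fold enrichment, 18 and 1 with summit pileups (added after seeing the data), and 4 to 9 and 0 to 2 with a library left out, where the lone library is assumed to vary like the other genotype's; with −log10 q of at least 5 in all libraries, 1 was higher. Of the 12 calls, 2 were kept with fold enrichment and 11 with pileups, and 2 under every alternative in which single regions were refitted. Id1 +3231 bp (0.02) and Smad6 −28126 bp (0.08) reversed with fold enrichment. Promoter differences reversed with fold enrichment at Bmp4 (0.24), Id1 (0.33), Id2 (0.04) and Msx1 (0.08), with pileups at Bmp7 (−0.21), Id3 (−0.23) and Msx2 (−0.19), and with a library left out at Bmp4 (−0.48 to 0.16), Msx1 (−0.13 to 0.08, with 0.0 without WT replicate 2), Msx2 (−0.15 to 0.27) and Smad6 (−0.05 to 0.25). Promoter ranks gave 0 lower and 4 higher members by fold enrichment, 2 higher when ranked anew, and 3 to 6 lower and 1 to 3 higher with a library left out. WT-restricted regions numbered 6 within 10 kb, 11 at a −log10 q of at least 5, 11 with equal peak numbers and 11 without missing numbers, and 21 to 25 with a library left out. K20R-restricted regions numbered 1 within 10 kb, 10 with equal peak numbers, 1 without missing numbers, and 3 to 11 with a library left out. Of the pathway list, 1 promoter was lower with fold enrichment, 3 were higher with pileups, and 0 to 1 were lower with a library left out. The causes were not tested, except that leaving out a library or narrowing the window leaves fewer libraries or regions. For restricted regions and promoter ranks, a left-out library can only keep or raise the counts. The peak number, at −19.5 K20R minus WT, stayed between −22.5 and −16.5 with a library left out was −12.5 at a −log10 q of at least 5, where the genotypes overlapped (exact permutation p = 0.667), and was −2.0 with equal peak numbers.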

Other observations

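The consensus of CTCF, searched by name within 100 bp of the summit, was in 5 of the 124 regions near members (4.03%, against 5.97% of all regions) and in 1 of the 63 common ones (1.59%, against 7.01%). It was in 0 of the 10 regions lower in K20R and 0 of the 2 higher. The shares over all lower and all higher regions were not computed. Of the 17 WT-restricted regions 0 held it, against 2.58% of all WT-restricted regions, so 0 of 17 is close to that share. The GATA motif AGATAAG was in 2 of the 17 WT-restricted regions (11.8%, against 6.09% of all 8341 WT-restricted regions), at Id1 +5520 bp and Smad7 −23137 bp. The T-box motif TCACACCT was in 1 of the 124 regions (0.806%, against 1.25% of all regions), at Id3 +37110 bp. GGCGCC was in 5 of the 10 lower regions (50%) and 18 of the 63 common ones (28.6%), against 11.9% of all common regions.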
